A study of Mus musculus with 6 samples.

Results

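Inflammasomes are protein assemblies that form in the cytosol when a sensor detects infection or cell damage, and pyroptosis is the lytic cell death that follows when gasdermin pores open in the plasma membrane. A sensor such as NLRP3, NLRC4, AIM2 or NLRP1B recruits caspase-1, mostly through the adaptor ASC, and caspase-1 then cuts the precursors of interleukin-1β and interleukin-18 and releases the pore-forming end of gasdermin D. Mouse caspase-4, also called caspase-11, senses bacterial lipopolysaccharide inside cells and cuts gasdermin D directly. In the liver these genes are best known from macrophages and recruited leukocytes. The 8 genes described here are the sensors Nlrp3, Nlrc4, Aim2 and Nlrp1b, the adaptor Pycard, which encodes ASC, the inflammatory caspases Casp1 and Casp4, and the pore gene Gsdmd. They were chosen by gene symbol, and all 8 were among the 24318 genes of the expression table.

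Whole livers of C57BL/6 mice were profiled by RNA-seq in 3 TAK1 knockout libraries and 3 control libraries. Every mouse, controls included, had the genotype VEcadCreERT2/TAK1flox/flox, in which a tamoxifen-inducible Cre recombinase under the VE-cadherin promoter can delete loxP-flanked Map3k7, the gene of the kinase TAK1, in endothelial cells. Knockout mice had received tamoxifen and control mice had received no treatment, so the deletion and the drug cannot be told apart in any comparison, and cells other than endothelium keep TAK1. The comparison asks how the genes of the inflammasome differ in the liver after endothelial loss of TAK1. Levels are FPKM, fragments scaled to transcript length and library size, so they can be compared between genes. Nothing in the labels says whether the 3 libraries of a group come from separate animals, and p-values therefore measure the spread between libraries.

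Map3k7 itself did not pass the test in whole liver (log2 fold change -0.04 ± 0.16 SE, limma adjusted p = 0.868), a level that cannot check an endothelial deletion, since other liver cells keep the gene. Of 11 cell type marker lists, that of hepatocytes had the highest summed level in every library. Low values moved in even steps, the smallest amount by which a gene's level can change. If 1 step is 1 fragment, the libraries held an estimated 2010000 to 2366000 fragments each. Most inflammasome genes lie near the floor at this depth, so their step numbers are given beside the levels.

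Of the 8 genes, 2 rose in knockout livers, Pycard and Nlrp3, and none fell. Of all 11842 genes tested, 27.0% were called (limma, Benjamini-Hochberg adjusted p under 0.05), 14.1% as higher, with 1669 higher and 1534 lower. Scaling the libraries to equal summed FPKM turned that split to 1356 higher and 2081 lower, with Pycard and Nlrp3 called as before. Testing required an average level of 0.5 FPKM or more, which 6 of the 8 genes reached and Nlrc4 and Nlrp1b did not. In 4 of the 8 genes (Nlrp3, Pycard, Aim2 and Gsdmd) every knockout library lay above every control library, against 22.4% of the tested genes. The median log2 fold change of the 6 tested genes was 0.87, beside -0.0007 for all genes tested. Aim2 passed the filter only through its knockout libraries, so this median is a description of genes that were partly selected for being high there. In whole tissue, more cells of a type and more RNA per cell cannot be told apart.

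**Figure D1:**
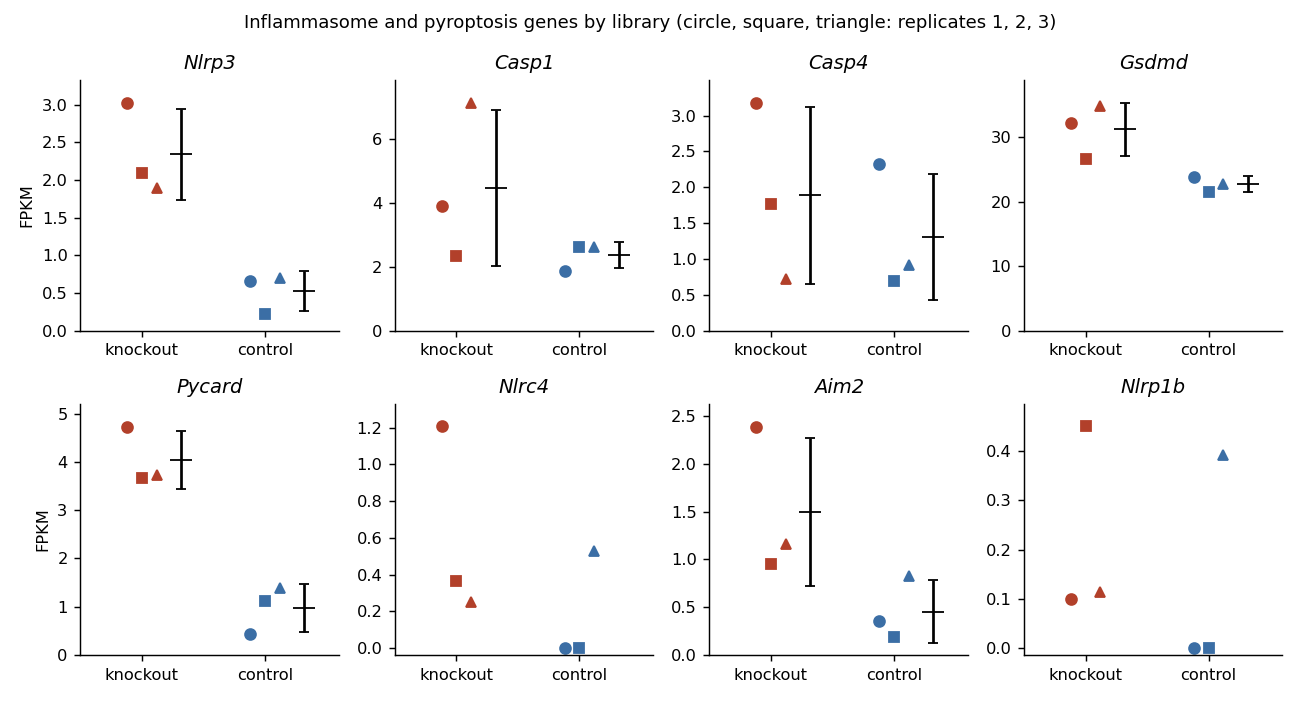
FPKM of each of the 8 genes in the 3 knockout libraries (red, left) and the 3 control libraries (blue, right), with the mean and SD in black except for Nlrc4 and Nlrp1b, which are listed at 0 in 2 controls. The knockout libraries lie above all controls for Nlrp3, Gsdmd, Pycard and Aim2 and overlap them for Casp1, Casp4, Nlrc4 and Nlrp1b.

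Pycard encodes ASC, the adaptor that polymerises into the speck on which caspase-1 is activated. It measured 4.73, 3.66 and 3.72 FPKM in knockout livers, against 0.429, 1.11 and 1.38 FPKM in control livers. All knockout libraries were well above the highest control, and the knockouts were closer to one another, relative to their level, than the controls were. In steps these values were 23, 16 and 16 in knockout and 2, 5 and 7 in control libraries. The mean of 4.04 ± 0.597 FPKM in knockout livers was 4.14 times the 0.975 ± 0.493 FPKM of control livers (SD, n = 3 each). The log2 fold change, taken on the log2(FPKM + 0.5) scale that understates changes of low genes, was 1.67 ± 0.30 (SE; limma adjusted p = 0.00352), with a 95% confidence interval of 1.0 to 2.35.

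Nlrp3 encodes the sensor that responds to potassium loss and many kinds of membrane damage, and in macrophages its transcription is induced by NF-kB during priming. It measured 3.03, 2.1 and 1.90 FPKM in knockout livers, against 0.655, 0.227 and 0.705 FPKM in control livers. The groups were far apart, with the lowest knockout above the highest control. The knockout libraries held 29, 18 and 16 steps and the control libraries 6, 2 and 7. Nlrp3 averaged 2.34 ± 0.605 FPKM in knockout livers and 0.529 ± 0.263 FPKM in control livers (SD, n = 3 each), a ratio of 4.43. Its log2 fold change was 1.48 ± 0.31 (SE; limma adjusted p = 0.00694), with a 95% confidence interval of 0.79 to 2.17.

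Among the other sensors, AIM2 binds DNA in the cytosol and recruits ASC. Aim2 measured 2.39, 0.950 and 1.16 FPKM in knockout livers, against 0.356, 0.185 and 0.820 FPKM in control livers. The groups did not overlap, but knockout 1 stood well above the other knockouts and control 3 above the other controls. The step numbers were small, at 14, 5 and 6 in knockout and 2, 1 and 5 in control libraries. The log2 fold change of 1.05 ± 0.37 did not pass the threshold (SE; limma adjusted p = 0.0652), and its 95% confidence interval ran from 0.21 to 1.90. Without control 3, the control mean was 0.270 in place of 0.454 FPKM, and the log2 fold change of 1.32 passed (limma adjusted p = 0.0410). Over 15 alternatives its adjusted p lay between 0.0275 and 0.205.

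NLRC4 is the sensor that joins NAIP proteins bound to bacterial flagellin or secretion needles. Nlrc4 measured 1.21, 0.367 and 0.249 FPKM in knockout livers and 0, 0 and 0.529 FPKM in control livers. Every knockout library held some, and of the controls only control 3, which lay above knockouts 2 and 3. These levels amount to 11, 3 and 2 steps in knockout and 0, 0 and 5 in control libraries (exact two-sided permutation p = 0.3, where 3 against 3 libraries cannot go below 0.1). NLRP1B is the sensor that is activated when its own N-terminal part is degraded. Nlrp1b measured 0.101, 0.450 and 0.115 FPKM in knockout livers and 0, 0 and 0.391 FPKM in control livers, which is 1, 4 and 1 steps against 0, 0 and 4 (exact two-sided permutation p = 0.5). No library held more than 4 steps of Nlrp1b, and its reads could be split with its paralog Nlrp1a. When all genes were fitted with no filter on low values, the log2 fold change was 0.70 for Nlrc4 (limma adjusted p = 0.276) and 0.22 for Nlrp1b (limma adjusted p = 0.654), and neither passed.

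Casp1 encodes caspase-1, the effector protease of the canonical inflammasome. It measured 3.92, 2.35 and 7.16 FPKM in knockout livers, against 1.88, 2.61 and 2.61 FPKM in control livers. Knockout 2 fell among the controls while knockout 3 was the highest of all libraries, so the groups overlapped. In steps the values were 13, 7 and 21 in knockout and 6, 8 and 9 in control libraries. The log2 fold change of 0.69 ± 0.34 did not pass the threshold (SE; limma adjusted p = 0.166), and the 95% confidence interval of -0.08 to 1.45 includes 0. Without knockout 2 it was 1.03 (limma adjusted p = 0.0384), and without knockout 3 it was 0.32.

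Casp4, the gene of the lipopolysaccharide sensor caspase-4, lies next to Casp1 on chromosome 9. It measured 3.18, 1.77 and 0.719 FPKM in knockout livers, against 2.32, 0.688 and 0.919 FPKM in control livers. The libraries of both groups were spread over much the same range. The log2 fold change was 0.37 ± 0.45 (SE; limma adjusted p = 0.594), with a 95% confidence interval of -0.66 to 1.39, and it was -0.02 without knockout 1. The knockout mean was 1.89 FPKM, or 1.24 without knockout 1, and the control mean was 1.31 FPKM, or 0.803 without control 1. With 10, 5 and 2 steps in knockout and 7, 2 and 3 in control libraries, single libraries decide these means.

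Gsdmd encodes gasdermin D, whose N-terminal fragment forms the pore of pyroptosis. It was by far the most abundant of the 8 genes per transcript length, at 32.2, 26.6 and 34.7 FPKM in knockout livers, against 23.9, 21.5 and 22.8 FPKM in control livers. The lowest knockout was above the highest control, and the controls lay close together. The means were 31.2 ± 4.15 FPKM in knockout and 22.7 ± 1.18 FPKM in control livers (SD, n = 3 each), a ratio of 1.37. The log2 fold change of 0.44 ± 0.15 just missed the threshold (SE; limma adjusted p = 0.0528), with a 95% confidence interval of 0.11 to 0.77. Without knockout 2, the lowest of its group, it was 0.55 and passed (limma adjusted p = 0.0276), in a range of adjusted p from 0.0251 to 0.163 under 16 alternatives.

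The order of levels differed little between the groups. In knockout livers it ran from Gsdmd through Casp1, Pycard, Nlrp3, Casp4, Aim2 and Nlrc4 to Nlrp1b. In control livers Casp4 stood above Pycard and Nlrp3, and the order was otherwise the same. Gsdmd was separated from the next gene in both groups, and Pycard from Nlrp3 in knockout livers. All other neighbours in the order overlapped between libraries, including Casp1 with Pycard in knockout livers (2.35 to 7.16 against 3.66 to 4.73 FPKM).

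Ratios between 2 genes within a library do not depend on how libraries are scaled, and 4 of the 5 chosen pairs could be computed. The Pycard to Casp1 ratio was 1.21, 1.56 and 0.520 in knockout libraries, against 0.228, 0.427 and 0.530 in control libraries. More adaptor per caspase transcript was measured in knockouts 1 and 2 but not in knockout 3, whose ratio was within the control range. The log2 difference of 1.42 did not pass (exact two-sided permutation p = 0.2, 0.533 after adjustment over 4 ratios, with 0.1 the smallest p that 3 against 3 libraries can give). For Nlrp3 to Aim2 the log2 difference was 0.41 (exact permutation p = 0.4) and for Gsdmd to Casp1 it was -0.34 (exact permutation p = 0.4). For Casp1 to Casp4 it was 0.30 (exact permutation p = 0.8), and its sign changed without knockout 3 or control 1. Nlrp3 to Nlrc4 has no ratio, since Nlrc4 is listed at 0 in 2 controls.

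Promoters are shown for Pycard and Nlrp3, which rose, and for Aim2, the sensor whose groups did not overlap but which missed the threshold. Sequences are RefSeq windows on GRCm38.p6, which is not the authors' build, from 250 bases before to 50 bases after an annotated start, read 5′ to 3′ on the gene's strand. Capitals mark a motif match. The windows are chr7:127993818-127994117 on the minus strand for Pycard, chr11:59541319-59541618 on the plus strand for the upstream start of Nlrp3, and chr1:173420354-173420653 on the plus strand for Aim2.
Pycard: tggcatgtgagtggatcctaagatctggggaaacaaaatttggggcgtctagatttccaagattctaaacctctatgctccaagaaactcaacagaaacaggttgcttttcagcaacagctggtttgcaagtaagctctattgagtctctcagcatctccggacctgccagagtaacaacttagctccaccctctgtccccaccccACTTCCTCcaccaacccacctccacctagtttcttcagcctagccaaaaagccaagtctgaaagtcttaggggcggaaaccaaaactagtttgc
Nlrp3: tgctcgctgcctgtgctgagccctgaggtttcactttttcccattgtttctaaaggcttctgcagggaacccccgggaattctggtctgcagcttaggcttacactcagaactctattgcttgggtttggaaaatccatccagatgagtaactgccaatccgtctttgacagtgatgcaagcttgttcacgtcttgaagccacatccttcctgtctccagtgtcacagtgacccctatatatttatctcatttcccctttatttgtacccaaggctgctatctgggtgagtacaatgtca
Aim2: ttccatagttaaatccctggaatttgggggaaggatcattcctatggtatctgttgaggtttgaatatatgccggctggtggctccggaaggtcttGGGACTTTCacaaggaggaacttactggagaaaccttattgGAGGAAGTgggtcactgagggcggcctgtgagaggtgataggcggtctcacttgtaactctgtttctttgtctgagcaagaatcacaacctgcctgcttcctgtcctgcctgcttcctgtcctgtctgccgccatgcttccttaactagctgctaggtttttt

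Matches were sought on both strands for 4 short motifs, the interferon response element GAAANNGAA, the gamma-activated site TTCNNNGAA, an NF-kB form GGGANTTTC and the PU.1 site GAGGAAGT. RefSeq windows were found for 7 of the 8 genes, 10 windows in all, which held 4 matches that did not overlap. Pycard held a PU.1 match on the opposite strand, 44 bases before its start. Aim2 held an NF-kB match 154 bases and a PU.1 match 113 bases before its start. A PU.1 match also lay 96 bases before 1 of the 2 listed starts of Nlrp1b. No window of Nlrp3, Casp1, Casp4 or Nlrc4 held any of these letters. Only these fixed letters were sought, so a window without a match is not shown to lack other forms of a site. Among all 32851 promoter windows, 3.20% held the PU.1 letters, 1.11% the NF-kB letters, 8.56% the interferon response element and 8.30% the gamma-activated site.

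Markers of leukocytes and of other liver cells moved with the knockout group. All 10 pan-leukocyte markers rose, among them Ptprc (CD45), and their mean level was 64.6, 67.0 and 72.5 FPKM in knockout libraries, against 19.8, 19.6 and 26.0 FPKM in control libraries, a ratio of 3.12 between the group means. Of the neutrophil markers 11 of 11 tested rose, with a summed level of 1725 to 1819 FPKM in knockout and 36.9 to 76.3 FPKM in control libraries. Monocyte markers rose in 9 of 9 (330 to 349 against 32.2 to 42.9 FPKM) and Kupffer cell markers in 8 of 12 (1526 to 1939 against 779 to 1285 FPKM). The 4 Kupffer cell markers not called were Clec4f (log2 fold change 0.18), Timd4 (0.56), Marco (0.74) and Cd163 (0.96), with overlapping groups in each. Sinusoidal endothelial markers fell in 9 of 10, with 35.3 to 37.8 FPKM in knockout and 169 to 251 FPKM in control libraries. General endothelial markers fell in 6 of 10 (54.0 to 64.3 FPKM in knockout and 75.3 to 114 FPKM in control libraries). The 4 not called were Pecam1 (log2 fold change -0.21), Eng (-0.39), Emcn (0.53) and Cdh5. Cdh5, the VE-cadherin gene, had a log2 fold change of 0.28 (limma adjusted p = 0.469), so the endothelial markers did not fall alike. Eosinophil markers rose in 6 of 6 tested (102 to 151 FPKM in knockout and 7.44 to 17.3 FPKM in control libraries), lymphocyte markers in 5 of 10 (21.8 to 40.9 against 5.34 to 10.3 FPKM) and stellate cell markers in 5 of 8 (291 to 329 against 162 to 196 FPKM). Of the hepatocyte markers 4 of 9 fell and 1 rose (18448 to 21034 FPKM in knockout and 20316 to 27051 FPKM in control libraries), and of 5 cholangiocyte markers 1 rose and 1 fell. No marker of these 11 lists was at 0 in all libraries. The part of these cells in the rise of Pycard and Nlrp3 was not tested.

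Divided by the mean pan-leukocyte level of the same library, Nlrp3 was 0.0469, 0.0313 and 0.0262 in knockout libraries and 0.0332, 0.0115 and 0.0271 in control libraries, and the groups overlapped. Pycard per leukocyte level was 0.0731, 0.0547 and 0.0514 in knockout libraries and 0.0217, 0.0566 and 0.0533 in control libraries, likewise overlapping. On this scale neither gene was separated between the groups (log2 differences 0.63 and 0.55, exact permutation p = 0.5 for each, 0.6 after adjustment), and both signs depended on the setting, since Nlrp3 was -0.15 with a pseudocount of 0.5 and Pycard -0.0060 against Ptprc alone. Between group means the 10 markers rose unequally, from 2.27 times for Lcp1 to 8.71 times for Coro1a. Their mean leans to the most abundant of them, such as Tyrobp, which rose 2.68 times. Gsdmd per leukocyte level was 0.499, 0.397 and 0.479 in knockout libraries, against 1.21, 1.1 and 0.877 in control libraries. Here every knockout library lay below every control, the opposite of the order of the Gsdmd level itself (log2 difference -1.20, exact permutation p = 0.1, 0.6 after adjustment over 6 genes). Between group means the divisor rose 3.12 times and Gsdmd 1.37 times, so the division itself turns the order round. This separation is therefore not a result about Gsdmd, and the share of all genes separated on this scale was not computed. For Casp1 the log2 difference was -0.87 (exact permutation p = 0.2), for Casp4 -1.16 (p = 0.4 by the same exact test) and for Aim2 0.22 (p = 0.8, exact), with overlapping groups in all 3. The sign for Aim2 also depended on the setting, at -0.34 against Ptprc alone.

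**Figure D2:**
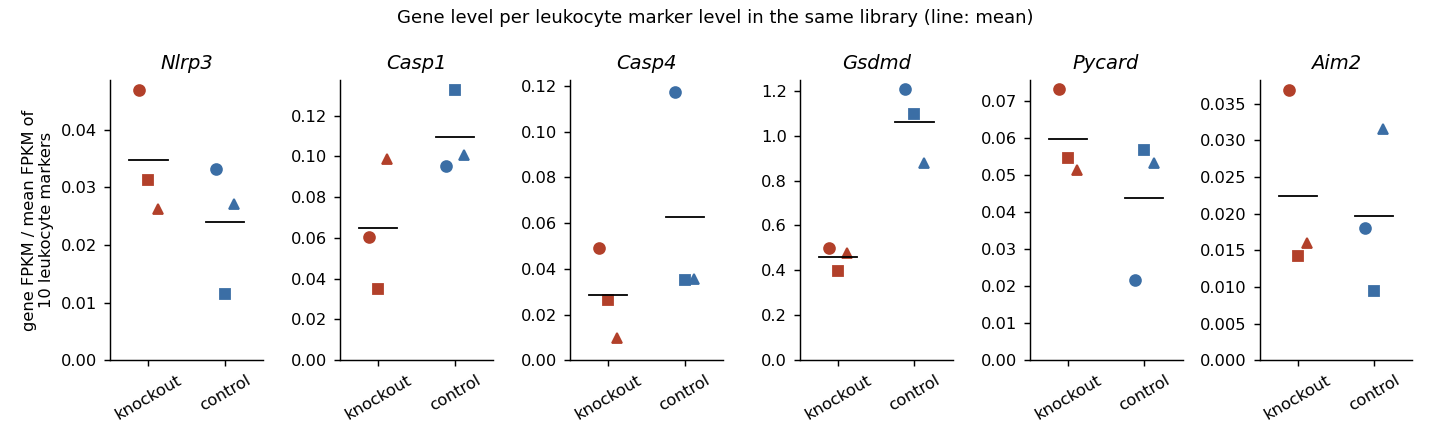
Ratio of each gene's FPKM to the mean FPKM of 10 pan-leukocyte markers in the same library, for the 6 genes above 0 in every library, in knockout (red, left) and control (blue, right) libraries, with the mean as a line. The groups are separated only for Gsdmd, at 0.397 to 0.499 in knockout and 0.877 to 1.21 in control libraries. Gsdmd rose less than the marker mean that divides it, so a lower ratio in knockout libraries follows from the division.

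The 6 lists of other pathway genes held 73 genes, of which 55 were tested, 13 rose and 3 fell. The 16 called genes are 29.1% of those tested, near the 27.0% called among all genes, so the share of calls does not set these lists apart. Mefv, Il1r2 and Il18rap passed the filter only through their knockout libraries, since their control means were under 0.5 FPKM. The genes that rose were the cytokine Il1b, interleukin antagonists and a receptor chain, regulators, neutrophil proteases, the transcription factor Irf8 and the sensor Mefv. Among 15 other sensors, 7 passed the filter, 1 rose and 1 fell. Mefv, the gene of the RhoA-linked sensor pyrin, was 2.62, 2.15 and 1.09 FPKM in knockout livers, against 0.144, 0.299 and 0.265 FPKM in control livers (log2 fold change 1.69 ± 0.33, limma adjusted p = 0.0052). Nlrp6, a sensor best known from the intestine, was 10.4, 7.26 and 9.42 FPKM in knockout livers, against 19.6, 21.7 and 14.9 FPKM in control livers (log2 fold change -1.01 ± 0.20, limma adjusted p = 0.00515). The Nlrp6 groups did not overlap, and it was more abundant than Mefv in every library. Naip2, whose protein detects bacterial needle subunits for NLRC4, did not pass (3.43 ± 0.928 FPKM in knockout and 1.68 ± 0.981 FPKM in control livers, SD, n = 3 each, limma adjusted p = 0.0833), and its reads could be split with other Naip genes.

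**Figure D3:**
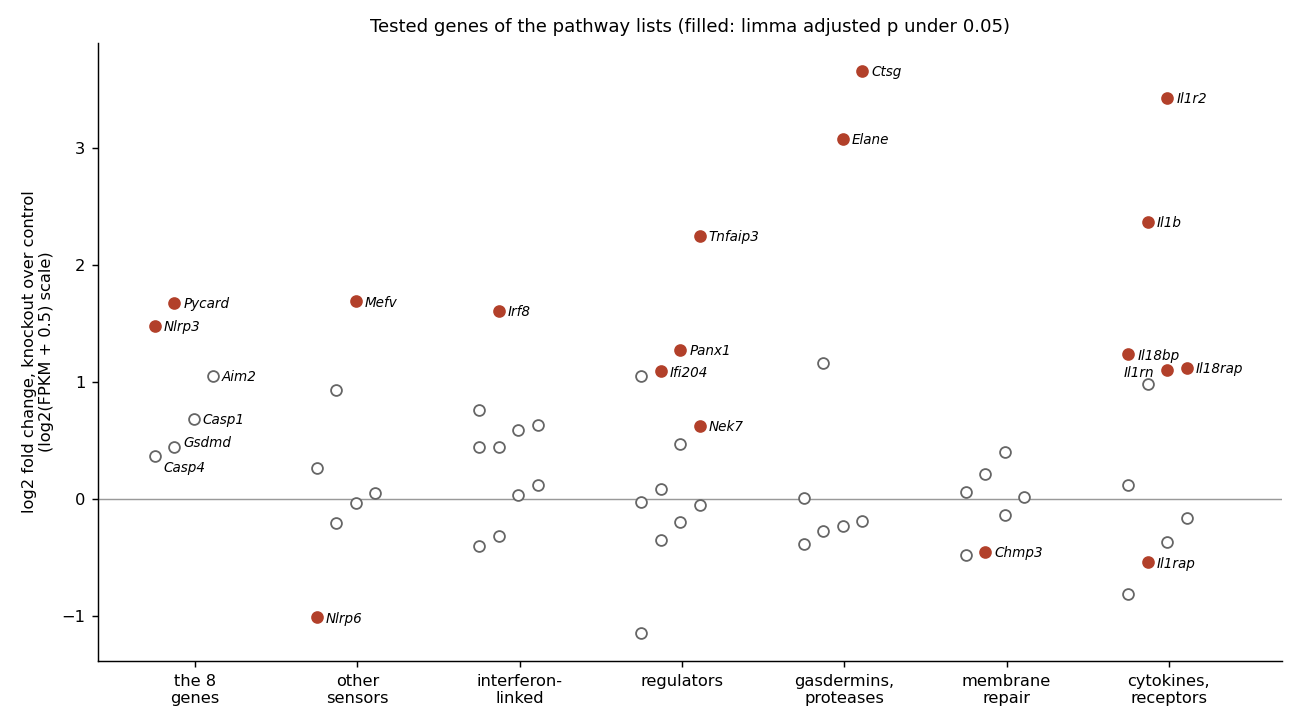
Log2 fold change of knockout over control for each tested gene of the 8 and of the 6 other lists, 1 point per gene, filled where the limma adjusted p is under 0.05. Filled points lie above 0 for 2 of the 8 genes and for 13 genes of the other lists, and below 0 for Nlrp6, Chmp3 and Il1rap.

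Of the 11 cytokines, antagonists and receptor chains tested, 5 were higher and 1 was lower. That is 54.5% called, beside 27.0% of all genes tested, and the difference between these shares was not tested. Il1b, the main substrate of caspase-1, was 9.11, 6.62 and 9.89 FPKM in knockout livers, against 2.55, 1.51 and 0.337 FPKM in control livers (log2 fold change 2.37 ± 0.42, limma adjusted p = 0.00333). Il18, the other caspase-1 substrate, had a log2 fold change of -0.81 ± 0.32 that did not pass (limma adjusted p = 0.0897), at 7.04, 7.80 and 3.96 FPKM in knockout livers and 17.0, 7.58 and 10.2 FPKM in control livers. The 2 substrates therefore differed in the sign of their estimates, and a test of the difference between them was not run. Il18bp, a secreted inhibitor of interleukin-18, rose to 61.4 ± 7.11 FPKM in knockout livers, against 26.0 ± 5.23 FPKM in control livers (SD, n = 3 each; limma adjusted p = 0.00113). Il1r2, the decoy receptor of interleukin-1, measured 7.26, 7.69 and 6.63 FPKM in knockout livers and 0, 0.373 and 0.333 FPKM in control livers (limma adjusted p = 8.8e-05). Il18rap, a signalling chain of the interleukin-18 receptor, rose as well (log2 fold change 1.12 ± 0.32, limma adjusted p = 0.0300), but lost its call without control 1, control 2, knockout 1 or knockout 3, with log2 fold changes of 0.95 to 1.22. Outside the naming rule, and chosen after their values were seen, the interleukin-1 receptor antagonist Il1rn rose (log2 fold change 1.1 ± 0.20, limma adjusted p = 0.00406) and the receptor chain Il1rap fell (-0.54 ± 0.14, limma adjusted p = 0.0215). The Il1rap call was lost without the mean-variance trend (limma adjusted p = 0.0542) and without control 1, control 3 or knockout 3, and its estimate stayed between -0.63 and -0.46 with 1 library left out.

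Of 12 tested regulators 4 rose and none fell. That is 33.3% called, near the 27.0% of all genes tested, so the count does not set the regulators apart. Tnfaip3, the gene of the ubiquitin-editing enzyme A20 that restrains NF-kB and NLRP3 activation, had a log2 fold change of 2.25 ± 0.31 (limma adjusted p = 0.0010). Nek7, the kinase that binds NLRP3 during assembly, was 23.2, 24.2 and 19.4 FPKM in knockout livers, against 15.0, 13.8 and 13.8 FPKM in control livers (log2 fold change 0.62 ± 0.15, limma adjusted p = 0.0128). Panx1, a large-pore channel, had a log2 fold change of 1.28 ± 0.34 (limma adjusted p = 0.0213) from few steps, 9, 8 and 9 in knockout and 1, 5 and 2 in control libraries. The DNA-binding gene Ifi204 had a log2 fold change of 1.09 ± 0.35 (limma adjusted p = 0.0453). Calls were lost for Nek7 without control 2 (0.60), for Panx1 without control 1, control 3, knockout 1 or knockout 3 (1.02 to 1.30), and for Ifi204 without any 1 library other than control 3 (0.64 to 1.20). With all 6 libraries, equal summed FPKM also ended the calls of Nek7 (0.51, limma adjusted p = 0.0531) and Ifi204 (0.98, limma adjusted p = 0.0653). Ifi204 further lost its call with a pseudocount of 0.1, with no filter and without the mean-variance trend (limma adjusted p = 0.0547, 0.0812 and 0.0719 in that order). Irgm1, an interferon-induced GTPase, was 18.6 ± 4.63 FPKM in knockout and 24.3 ± 2.55 FPKM in control livers and did not pass (SD, n = 3 each; limma adjusted p = 0.163). Among the 10 guanylate-binding, interferon-linked and licensing genes 1 rose, the transcription factor Irf8 (log2 fold change 1.61 ± 0.28, limma adjusted p = 0.00302), named after its value was seen. Irf2, a factor known to drive Gsdmd transcription in mouse macrophages, was 21.4 ± 1.86 FPKM in knockout and 15.6 ± 1.41 FPKM in control livers (SD, n = 3 each; limma adjusted p = 0.0514), and it was called under 5 of 16 alternatives.

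Of the other gasdermins listed, only Gsdme was above 0. Of 16 genes for gasdermins, membrane rupture and gasdermin-cutting proteases, 8 were listed at 0 in every library, among them Gsdma and Gsdmc with their copies. The neutrophil serine proteases Ctsg and Elane, which can cut gasdermins, rose with the other neutrophil markers. Ctsg measured 12.7, 16.3 and 12.7 FPKM in knockout livers and 1.02, 0 and 1.41 FPKM in control livers. Its log2 fold change was 3.66 with a limma adjusted p of 0.000536, and 3.07 to 4.04 with 1 library left out. Elane measured 8.70, 14.5 and 5.51 FPKM in knockout livers and 0.563, 0 and 2.09 FPKM in control livers. Its log2 fold change was 3.08 with a limma adjusted p of 0.00352, and 2.50 to 3.69 with 1 library left out. Gsdme, listed under its older symbol Dfna5, was 2.67, 1.83 and 0.931 FPKM in knockout livers and 0.858, 0.891 and 0 FPKM in control livers. Every knockout library lay above every control, narrowly for knockout 3, at 13, 8 and 4 steps against 4, 4 and 0. The log2 fold change of 1.16 ± 0.46 did not pass (SE; limma adjusted p = 0.0920). Ninj1, which ruptures the membrane after gasdermin pores form, was abundant at 124 ± 12.6 FPKM in knockout and 146 ± 13.8 FPKM in control livers (SD, n = 3 each; limma adjusted p = 0.244). Of 7 membrane repair genes of the ESCRT machinery none rose and 1, Chmp3, fell (log2 fold change -0.45 ± 0.13, limma adjusted p = 0.0354), a call that was lost on leaving out any 1 library (-0.50 to -0.41) and in 3 of the 10 other settings. The more abundant Chmp4b (58.7 ± 8.76 FPKM in knockout and 44.2 ± 4.52 FPKM in control livers, SD, n = 3 each) and Chmp2a (80.9 ± 4.92 FPKM in knockout and 89.7 ± 15.9 FPKM in control livers) did not pass (limma adjusted p = 0.0809 and 0.577).

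Likeness of pattern was measured as the root mean square difference in log2(FPKM + 0.5) over the 6 libraries, after centring each gene on its own mean, among 6256 named genes of at least 5 FPKM. Nlrp3 was most like Clec12a, a myeloid lectin receptor, at 0.12 log2 units, followed by Ms4a6d at 0.12 and Rassf1 at 0.16. Pycard was most like Tpd52 (0.15), Fam129a (0.16) and Nckap1l (0.18), a subunit of the actin-regulating WAVE complex of blood cells. Gsdmd had the closest neighbours, Daxx (0.05), Adpgk (0.07) and Sart1 (0.07), none of which passed the test itself. Aim2 was nearest to Hgf (0.20), Nfkb2 (0.21) and Pde4b (0.22). The added 0.5 understates changes of low genes such as Aim2 more than those of the genes searched. Likeness on this scale is therefore not likeness of ratio. Between group means Aim2 rose 3.30 times and Hgf 1.75 times. The gene nearest to Casp1 was Ppp1r14a (0.22) and that nearest to Casp4 was Vamp2 (0.35).

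**Figure D4:**
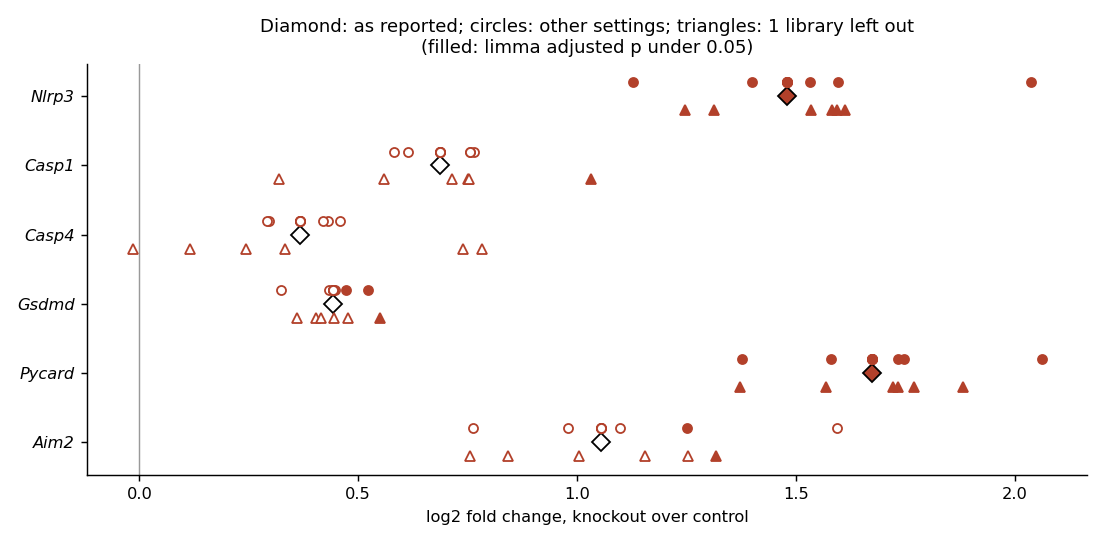
Log2 fold change of knockout over control for the 6 tested genes as reported (diamonds), under other settings (circles) and with 1 library left out (triangles), filled where the limma adjusted p is under 0.05. Nlrp3 and Pycard are filled throughout, at 1.13 to 2.04 and 1.37 to 2.06, while Casp4 reaches -0.02 without knockout 1.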

How the data were processed

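Whole liver RNA was sequenced as paired ends in 3 knockout and 3 control libraries. Per the submitters' processing notes, the genome build was mm9 and the tools were Cuffnorm 2.2.1, Cuffdiff 2.2.1, TopHat2 2.1.0 and Trimmomatic 0.33. The annotation behind the gene models was not stated in the labels. The authors deposited FPKM values per gene, used here as they stand. Alb, listed at 0 in all controls, was left out as a failed estimate.

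Differences between the groups were fitted in R 4.3.3 with limma 3.58.1, using a mean-variance trend and two-sided tests, on log2(FPKM + 0.5) of genes averaging 0.5 FPKM or more, with Benjamini-Hochberg adjustment over all 11842 genes. Single values and ratios were tested by exact permutation (scipy 1.17.1). Figures used matplotlib 3.10.9. The limma step was tested on simulated data.

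Steps were read from low values after putting libraries on 1 scale (0.921 to 1.08 times control 1), and 7 of the 8 genes gave whole numbers within 0.05 of a step. The fragment totals use 337 genes with 1 GENCODE transcript. No 2 libraries shared a nonzero value. Intervals rest on the spread between libraries, which includes counting error, and counting error was not modelled on its own.

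The 8 genes and the lists were chosen with earlier results of these data known. Named in the text are the 8 genes, and in each other list up to 4 called genes with the largest change or, where fewer than 2 were called, the 2 most abundant. Naip2, Dfna5, Ninj1, Il18, Irf8, Il1rn, Il1rap and Chmp3 were also named after their values were seen. So were the uncalled Kupffer cell markers and the uncalled general endothelial markers other than Cdh5, which was planned as a check. For each tested gene the 3 nearest genes were taken. Alternatives were other pseudocounts, filters, scalings and variance models, weights per library, leaving out each library in turn, and a block on replicate number.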

Additional observations from a re-analysis of the deposited data

How the results depend on the processing

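Pycard and Nlrp3 stayed above the threshold under all 16 alternatives. Genes called lower over the whole table numbered 943 to 1497 with 1 library left out, against 1534 with all. Of the 8 genes, 4 rose with library weights, and 2 to 4 rose with 1 library left out. The number called higher over the whole table moved as well, to 1186 to 1644 with 1 library left out, against 1669 with all. Over the 16 alternatives it reached 1873 at most. Gsdmd passed with library weights (log2 fold change 0.47) and with equal upper quartiles (0.52), and ran from 0.36 to 0.55 with 1 library left out. With equal summed FPKM it was 0.32, its lowest estimate, and did not pass (limma adjusted p = 0.134). In all, 3 of 16 alternatives called Gsdmd. Aim2 passed with library weights (1.25) and ran from 0.76 to 1.32 with 1 library left out, Casp1 from 0.32 to 1.03 and Casp4 from -0.015 to 0.78. Other pathway genes called lower numbered 6 with equal summed FPKM, 1 without the mean-variance trend and 1 to 3 with 1 library left out. Equal summed FPKM moved the median of all genes to -0.11. Per leukocyte level, the log2 difference of Aim2 was -0.58 with a pseudocount of 0.5, -0.34 against Ptprc alone and -0.23 to 0.64 with 1 library left out; that of Nlrp3 was -0.15 with the pseudocount and that of Pycard -0.0060 against Ptprc. The Casp1 to Casp4 ratio ran from -0.69 to 0.82 with 1 library left out. The cause of these moves was not tested. Same-numbered libraries did not deviate together (correlations -0.01, -0.00012 and 0.0015), so numbers do not pair them; with the replicate block, Nlrp3 and Pycard kept their calls (limma adjusted p = 0.0106 and 0.00741) and no other of the 8 genes passed. Nlrc4, Nlrp1b, Aim2 and Casp4 rest on few steps.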
